A study of Mus musculus with 3 samples.

Results

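The constant genes of the immunoglobulin light chains were followed in mouse spleen cells: Igkc, which encodes the constant domain of the kappa chain, and Iglc1, Iglc2 and Iglc3, which encode those of the lambda chains. They were chosen by gene name and make up 4 of the 32285 genes counted. Splenocytes had been depleted of T cells with CD3 microbeads and sequenced cell by cell with the 5′ chemistry of 10x Genomics. A unique molecular identifier (UMI) on each captured molecule lets it be counted once. There were 3 libraries, with 1 library per group, so differences between groups have no replicate check and no p-value is given.

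All mice were 12 to 14 weeks old per the labels. The C57Bl/6 control library held cells of male mice with a sham minipump and of female mice. In the C57Bl/6 Ang II library were cells of male mice whose minipump delivered angiotensin II (Ang II, a peptide that raises blood pressure) for 2 weeks from an age of 10 weeks, labelled 490 ug/kg/min, given either placebo or 2-hydroxybenzylamine (2HOBA, a scavenger of reactive lipid aldehydes). The B6.SLE123 library, from a congenic strain that develops lupus-like autoimmunity, held cells of female mice given placebo or 2HOBA for 6 weeks from an age of 7 weeks. Each condition was a pool of 3 mice, and each library combined 2 conditions. Cells carried hashtag antibodies, and 6 hashtags (C0301 to C0306) were counted in each library, but the labels do not tie a hashtag to a condition or a mouse. The 18 hashtag populations are therefore described one by one or as ranges and are not replicates. The labels do not separate the sexes and treatments inside a library, and these were not compared. Sex differed with the group, being mixed in control, male in Ang II and female in B6.SLE123, and neither sex nor the library can be told apart from strain or treatment.

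An antibody holds 2 identical heavy chains and 2 identical light chains, and each light chain is either kappa or lambda. In a developing B cell the kappa locus is usually rearranged first and a V segment is joined to a J segment, and the lambda locus follows where no usable kappa chain results, so that a mature B cell makes as a rule only one kind. The mouse has many kappa V segments (Igkv genes) but only 3 lambda V segments, Iglv1, Iglv2 and Iglv3, and most mouse B cells carry kappa. B cells carry the chain in the membrane receptor, and plasma cells secrete it in large amounts.

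On the mm10 assembly, Igkc is a single exon on the forward strand of chromosome 6, from 70726435 to 70726966, with 320 coding bases. The lambda genes lie on the reverse strand of chromosome 16, Iglc1 from 19061618 to 19062071 with 317 coding bases, Iglc3 from 19065230 to 19065681 with 314, and Iglc2 from 19198396 to 19200351 with 315. Iglc2 and Iglc3 share 96.19% of aligned coding bases, with a longest identical stretch of 79 bases, while Iglc1 shares 73.35% with Iglc2 and 74.53% with Iglc3. Igkc shares 52.31 to 54.41% with the lambda genes. Reads that lie wholly in stretches where Iglc2 and Iglc3 are identical cannot be assigned to either, and the split of UMIs between these genes is less certain than their sum. Such stretches are short: 0 of 369 windows of 90 bases in the Iglc2 transcript occur in that of Iglc3, and 0 of 363 the other way. A stretch of 160 coding bases from the 5′ end of each constant exon follows, taken from the gene's GENCODE transcript on its own strand. The mm10 positions are chr6:70726435-70726594 for Igkc, chr16:19061912-19062071 for Iglc1, chr16:19198693-19198852 for Iglc2 and chr16:19065522-19065681 for Iglc3. The stretches are shown because the counts of the lambda genes rest on these differences: capitals mark the 35 bases of Iglc1 and the 7 bases of Iglc3 that differ from Iglc2.
Igkc: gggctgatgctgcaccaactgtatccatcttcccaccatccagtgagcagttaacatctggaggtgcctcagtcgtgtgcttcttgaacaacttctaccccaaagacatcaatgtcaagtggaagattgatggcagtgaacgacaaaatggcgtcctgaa
Iglc1: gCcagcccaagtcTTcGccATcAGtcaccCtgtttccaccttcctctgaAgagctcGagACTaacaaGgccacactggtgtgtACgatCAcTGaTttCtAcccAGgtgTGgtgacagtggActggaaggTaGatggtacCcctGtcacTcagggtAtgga
Iglc2: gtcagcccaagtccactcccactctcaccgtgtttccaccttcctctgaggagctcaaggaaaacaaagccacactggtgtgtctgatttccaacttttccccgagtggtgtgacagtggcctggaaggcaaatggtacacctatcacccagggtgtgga
Iglc3: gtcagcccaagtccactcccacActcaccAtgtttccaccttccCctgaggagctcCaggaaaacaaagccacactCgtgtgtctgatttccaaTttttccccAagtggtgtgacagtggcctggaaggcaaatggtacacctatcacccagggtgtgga

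After filtering, 46431 cells remained (15700 control, 14023 Ang II and 16708 B6.SLE123), with a median of 1759, 2724 and 1888 UMIs per cell. Of these, 282, 540 and 486 had no called hashtag. Such cells count in the library values but belong to none of the hashtag populations. Clusters were built without any immunoglobulin gene, so that the members did not enter them, and were named from markers. The noncoding gene Gm30211, annotated across Igkc, was not among the genes left out. The clusters gave 38365 B cell-like cells (13396, 11763 and 13206) and 380 plasma cell-like cells (23, 34 and 323). Pairs of libraries shared 415 to 496 cell barcodes. B cells of the control and B6.SLE123 libraries lay mostly in different clusters: the cluster led by Ifitm1 and Ifitm2 held 70.9% of B6.SLE123 B cells, and 9362 of its 9497 cells came from that library. Values over all B cells compare these different mixtures.

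Levels are CPM: the UMIs of a gene summed over the cells of a class, scaled so that all genes of that class sum to 1e6. Plasma cell-like cells held the highest level of Igkc, Iglc1 and Iglc2 among the cell classes in each library, but not of Iglc3, which stood at 1075, 981 and 789 CPM there and at 1365, 1187 and 1028 CPM in B cells. Igkc stood at 27756 CPM in control, 20786 in Ang II and 21346 in B6.SLE123 plasma cells, against 1585, 1255.5 and 1284 CPM in B cells. The sum of the 3 lambda genes (the Iglc sum) reached 9484, 6476 and 4074 CPM in plasma cells and 3299, 2655 and 2625 CPM in B cells. Per Igkc UMI, B cells thus carried 2.08, 2.11 and 2.04 lambda constant UMIs, and plasma cells 0.34, 0.31 and 0.19. The genes' annotated transcripts are of similar length, 532 bases for Igkc and 454, 458 and 452 for Iglc1, Iglc2 and Iglc3, and these ratios were not corrected for length.

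**Figure D1:**
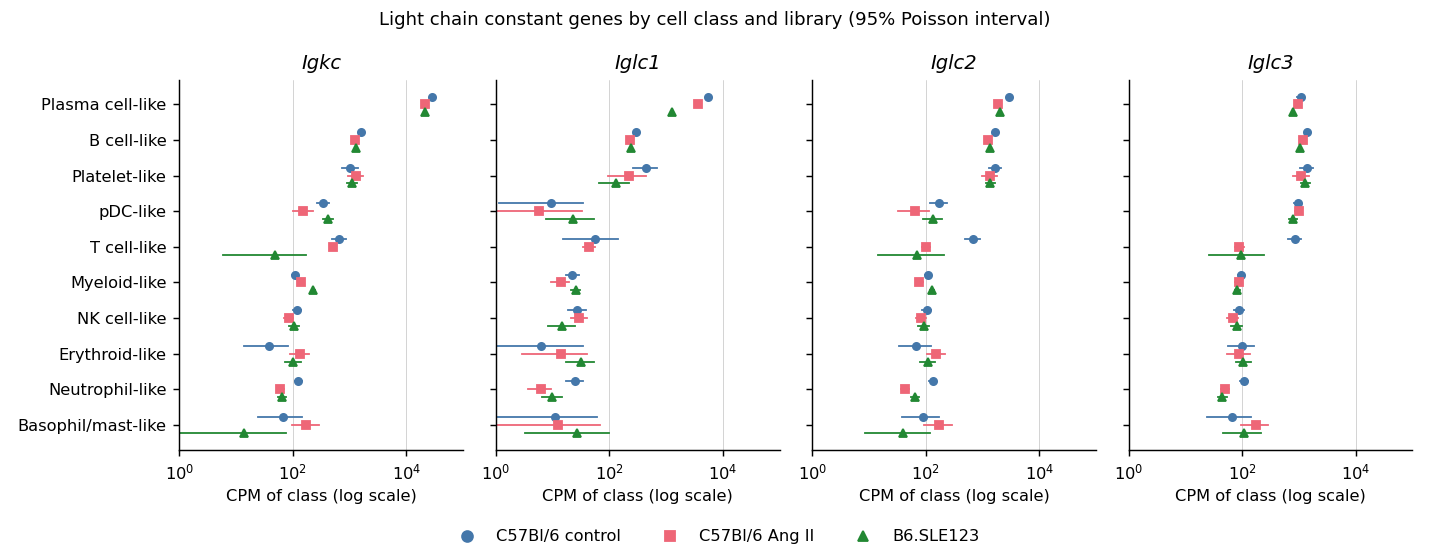
Level of Igkc, Iglc1, Iglc2 and Iglc3 (CPM, log axis) in each cell class, 1 point per library with its exact Poisson 95% interval, which covers counting error. Plasma cell-like cells lie highest for Igkc, Iglc1 and Iglc2, and Iglc3 in pDC-like cells (785 to 995 CPM) lies close to its B cell level while the other lambda genes there do not.

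Classes that should lack light chains give the background. Free RNA and B cells caught in the same droplet cannot be told apart in it. Igkc was at 124, 59.8 and 64.9 CPM in neutrophil-like cells, and 8.81, 10.9 and 11.9% of these cells held an Igkc UMI, against 84.4, 84.6 and 78.1% of B cells. NK cell-like cells held 117, 83.9 and 104 CPM. The summed Igkv genes were more widespread and less even: 24.3, 35.4 and 64.4% of neutrophil-like cells and 21.6, 44.4 and 57.9% of NK cell-like cells held at least 1 such UMI, at 699.7, 346.5 and 737 CPM and at 1011, 692 and 1298 CPM. Platelet-like cells stood apart with 1027, 1269 and 1117 CPM of Igkc, but their summed level of the B cell genes Cd79a, Cd79b and Ms4a1 was 5893, 7005 and 5543 CPM, beside 7161, 6604 and 6372 CPM in B cells. The part of B cell RNA in that value was not tested. The T cell-like class carried 659 and 505 CPM of Igkc in control and Ang II and 47.6 in B6.SLE123, with B cell genes at 3111, 507 and 405 CPM.

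Iglc3 departed from the other lambda genes in plasmacytoid dendritic cell-like (pDC-like) cells, the interferon-producing dendritic cells. Their Iglc3 level was 946 CPM in control, 995 in Ang II and 785 in B6.SLE123, in 82.0, 85.2 and 73.8% of 50, 27 and 61 cells. Iglc2 was at 170, 64.4 and 135 CPM and Iglc1 at 9.46, 5.86 and 23.4 CPM in the same cells. There were 5.56 Iglc3 UMIs per Iglc2 UMI in control (95% interval 3.88 to 8.16), 15.5 in Ang II (8.42 to 31.6) and 5.79 in B6.SLE123 (3.89 to 8.91), against 0.83, 0.96 and 0.76 in B cells and 0.82, 1.15 and 0.69 in neutrophil-like cells. The ratio in these cells lay above that of B cells and of neutrophil-like cells in each of the 3 libraries, with intervals that do not reach those values. The B cell genes named above summed to 520.1, 123 and 542 CPM in pDC-like cells and to 517, 242 and 315 CPM in neutrophil-like cells.

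Within B cells, each member was lower in the Ang II and B6.SLE123 libraries than in control, and 0 of 4 passed 2-fold in either. Among all genes tested, 1.55% passed 2-fold in Ang II and 7.37% in B6.SLE123. Igkc, at 1585 CPM in control (exact Poisson 95% interval 1570 to 1600), was at 1255.5 (1244 to 1267) in Ang II and 1284 (1271 to 1296) in B6.SLE123, a log2 ratio of -0.34 and -0.30. All intervals here cover counting error only, not the spread between mice. Iglc1 stood at 293, 236 and 237 CPM, with log2 ratios of -0.32 and -0.31. Iglc2 was at 1641, 1232 and 1359 CPM, with log2 ratios of -0.41 and -0.27. For Iglc3 the levels were 1365, 1187 and 1028 CPM, with log2 ratios of -0.20 and -0.41. The Iglc sum followed at -0.31 and -0.33. The median of all genes tested was 0.06 in Ang II and -0.05 in B6.SLE123, and the 4 members lay between percentiles 4.40 and 15.1 of all genes in Ang II and between 14.6 and 25.3 in B6.SLE123. The light chain genes were lower than most genes in both, by amounts that many other genes in B6.SLE123 B cells exceeded.

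By hashtag, Igkc in B cells ran from 1454 to 1743 CPM (median 1567) in control, from 1236 to 1281 (median 1259) in Ang II and from 1230 to 1433 (median 1241) in B6.SLE123. The control populations did not overlap with those of either other library. Among all genes tested, 4.85% lay lower with no overlap in Ang II and 10.9% in B6.SLE123, and of the members 2 of 4 did so in each. Iglc1 ran from 263 to 341 CPM in control, from 175 to 302 in Ang II and from 201 to 258 in B6.SLE123, and these overlapped with control in Ang II only. Iglc2 ran from 1511 to 1858, from 1036 to 1370 and from 1233 to 1636 CPM, overlapping with control in B6.SLE123 only. For Iglc3 the ranges of 1200 to 1479, 1049 to 1267 and 872 to 1217 CPM overlapped in each case. With sexes and treatments mixed over hashtags in an unlabelled way, the spread within a library holds both mice and conditions.

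The V segments differed from the constant genes in B6.SLE123 B cells. The 160 Igkv genes summed to 8753 CPM in control, 8719 in Ang II and 10429 in B6.SLE123, a log2 ratio of -0.01 and 0.25, while Iglv1, Iglv2 and Iglv3 together were at 941, 720 and 517 CPM. Within B6.SLE123 the Igkv sum was uneven, at 9344 CPM in the cluster led by Ifitm1 and Ifitm2. It was at 20486 CPM in a cycling germinal centre-like cluster with 3.73% of the B cells of that library. In B6.SLE123 the log2 ratio to control was -0.91 for Iglv1, -0.80 for Iglv2 and -0.72 for Iglv3, and in Ang II it was -0.35, -0.59 and -0.23. The heavy chain constant genes of naive B cells were also lower: Ighm by a log2 ratio of -0.39 in B6.SLE123 and -0.65 in Ang II, and Ighd by -0.80 and -0.42.

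A cell was called kappa where it held at least 10 Igkc UMIs and at least 10 times as many as of the Iglc sum, lambda for the reverse, both where the larger count was at least 10 and neither was 10 times the other, and low otherwise. Few B cells could be called in this way. In control, 14 B cells were called kappa, 569 lambda, 2631 both and 10182 low. Ang II held 13, 683, 3326 and 7741 such cells, and B6.SLE123 held 33, 682, 2022 and 10469. Lambda thus took 97.6% of the called B cells in control (exact Clopper-Pearson 95% interval 96.0 to 98.7), 98.1% in Ang II and 95.4% in B6.SLE123 (93.6 to 96.8). Single hashtag populations held 1 to 13 kappa-called cells, and lambda-called cells made up 3.85 to 7.20% of their B cells. The median B cell held 3, 3 and 2 Igkc UMIs beside 6, 7 and 5 of the Iglc sum, and between 94.3 and 95.4% of B cells held at least 1 lambda constant UMI.

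The V segments gave another picture. With the same thresholds applied to the summed Igkv genes against Iglv1, Iglv2 and Iglv3, a call added after the data were seen, 8606 control B cells were kappa, 498 lambda, 560 both and 3732 low. The median B cell held 15, 22 and 17 Igkv UMIs. Lambda made up 5.47% of 9104 called B cells in control (5.01 to 5.96), 3.97% of 9115 in Ang II (3.58 to 4.39) and 2.50% of 9720 in B6.SLE123 (2.20 to 2.83). The log2 ratio of the share stood at -0.46 in Ang II, with an interval of -0.66 to -0.26, and at -1.13 in B6.SLE123, with an interval of -1.36 to -0.91. With each cell thinned to 1000 UMIs, which left out 1080, 849 and 1442 shallower cells, the shares were 5.97, 4.78 and 2.84%. With the level of neutrophil-like cells subtracted first, they were 6.08, 4.42 and 3.09%, a log2 ratio of -0.46 in Ang II and -0.98 in B6.SLE123. The constant call did not follow the V call: of the 569 control B cells it named lambda, 320 were kappa and 88 lambda by their V segments, while in Ang II 468 of 683 and in B6.SLE123 532 of 682 were kappa. Of the 498, 362 and 243 V lambda B cells, it named 88, 86 and 44 lambda and 0 kappa. By the V segments, 4.33, 4.26 and 4.61% of neutrophil-like cells were called kappa.

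**Figure D2:**
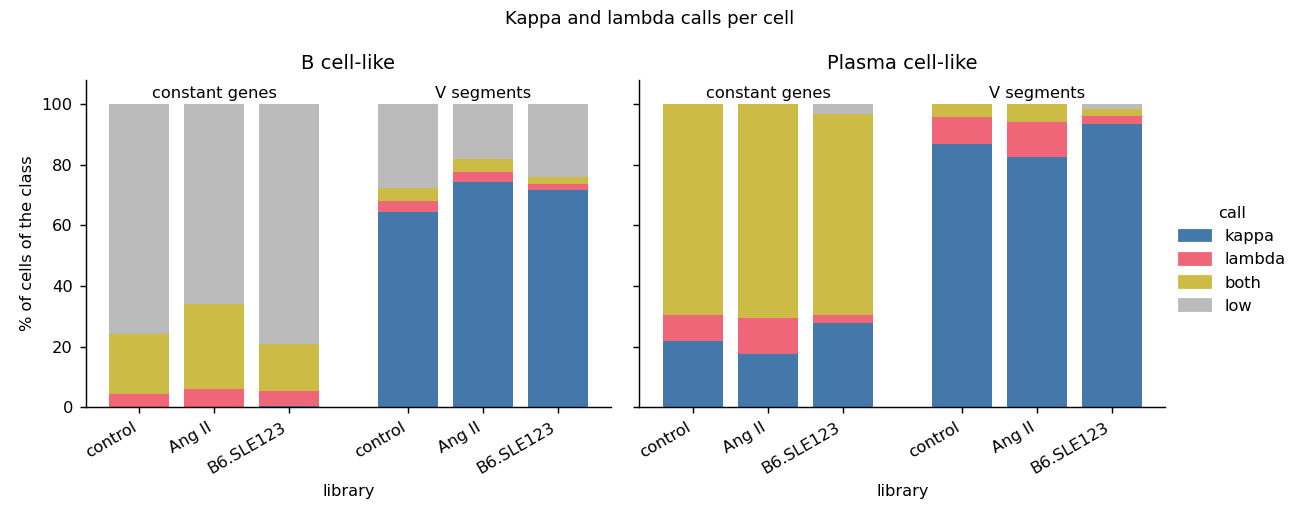
Share of B cell-like and plasma cell-like cells (percent of cells) called kappa, lambda, both or low in each library, by the constant genes and by the V segments. By the constant genes, 76.0% of control B cells were low and 4.25% lambda, whereas by V segments kappa was the most frequent call in each library.

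The lambda share by V segments differed between hashtags of 1 library as well. In control, C0301 to C0306 held 4.64, 3.01, 4.59, 6.40, 8.29 and 6.29% lambda among called B cells. Ang II held 3.55, 3.84, 4.56, 3.70, 4.02 and 4.35%, and B6.SLE123 held 2.73, 2.14, 3.56, 1.72, 2.91 and 2.29%. The Ang II values lay within the control range. In B6.SLE123, 5 of 6 values were below the lowest control value and C0303 was above it. The control interval of C0305 (6.95 to 9.79) did not reach that of C0301 (3.73 to 5.69).

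**Figure D3:**
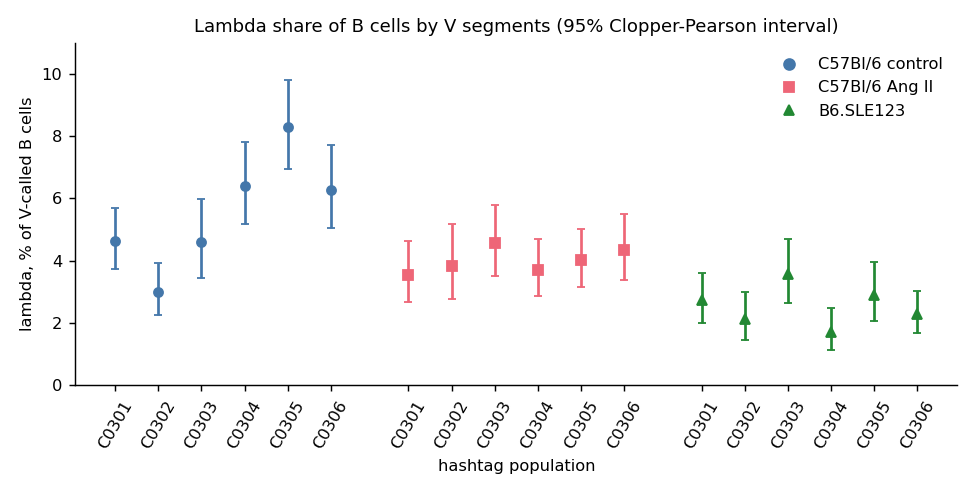
Lambda share by V segments (percent of B cells called kappa or lambda) for each of the 6 hashtag populations in 3 libraries, with exact 95% binomial intervals for counting error. Control spreads from 3.01 to 8.29%, Ang II from 3.55 to 4.56% and B6.SLE123 from 1.72 to 3.56%.

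Split by the V call, the 4 constant genes were unlike each other. Igkc was at 222 CPM in V lambda and 1715 in V kappa B cells of the control library, 171 and 1341 in Ang II, and 142 and 1365 in B6.SLE123, or 7.72-, 7.84- and 9.62-fold lower in lambda cells. It was lower in all 18 hashtag populations, by log2 ratios of -3.87 to -2.13. Iglc1 was higher in V lambda cells, at 646 against 287, 443 against 234 and 412 against 248 CPM, and in all 18 populations. Iglc2 barely differed, at 1746 against 1673, 1287 against 1248.5 and 1499 against 1377 CPM, and was higher in 12 populations and lower in 6. Iglc3 went the other way, at 717 against 1432, 597 against 1242 and 680 against 1054.5 CPM, and was lower in V lambda cells of all 18 populations, with a median log2 ratio of -0.88. The Iglc sum was slightly lower in V lambda than in V kappa cells in each library, by log2 ratios of -0.13, -0.23 and -0.05. The median cell held 6, 7 and 6 UMIs of the Iglc sum in V kappa and 6, 6 and 5 in V lambda cells. In these counts Igkc separated the V lambda from the V kappa cells and the Iglc sum did not.

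**Figure D4:**
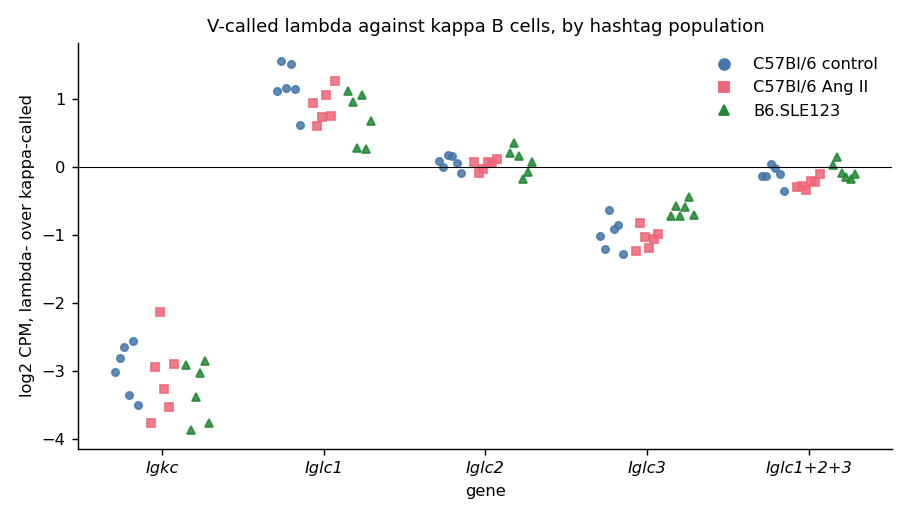
Log2 ratio of CPM in V lambda over V kappa B cells for each constant gene and the Iglc sum, 1 point per hashtag population, with the library as colour. All 18 points lie below 0 for Igkc and Iglc3 and above 0 for Iglc1, while Iglc2 ranges from -0.18 to 0.36.

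The lambda constant genes also differed by the lambda V segment that led in the cell. Iglv1 led in 341, 263 and 159 V lambda B cells, Iglv2 in 122, 76 and 63, and Iglv3 in 35, 23 and 21. Iglc1, which is rearranged together with Iglv1 as a rule, stood at 738, 506 and 462 CPM in Iglv1-led cells and at 523, 245 and 368 in Iglv2-led cells. Iglc2 was at 1888, 1403.5 and 1582 CPM in Iglv1-led against 1449, 969 and 1355 in Iglv2-led cells. For Iglc3 the order was reversed, with 598, 494 and 512 CPM in Iglv1-led and 870, 739 and 987 CPM in Iglv2-led cells. The same order of Iglv1- and Iglv2-led cells was seen in each of the 3 libraries for all 3 genes. The few Iglv3-led cells held 347, 533 and 209 CPM of Iglc1 and 1128, 1196 and 925 of Iglc3.

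**Figure D5:**
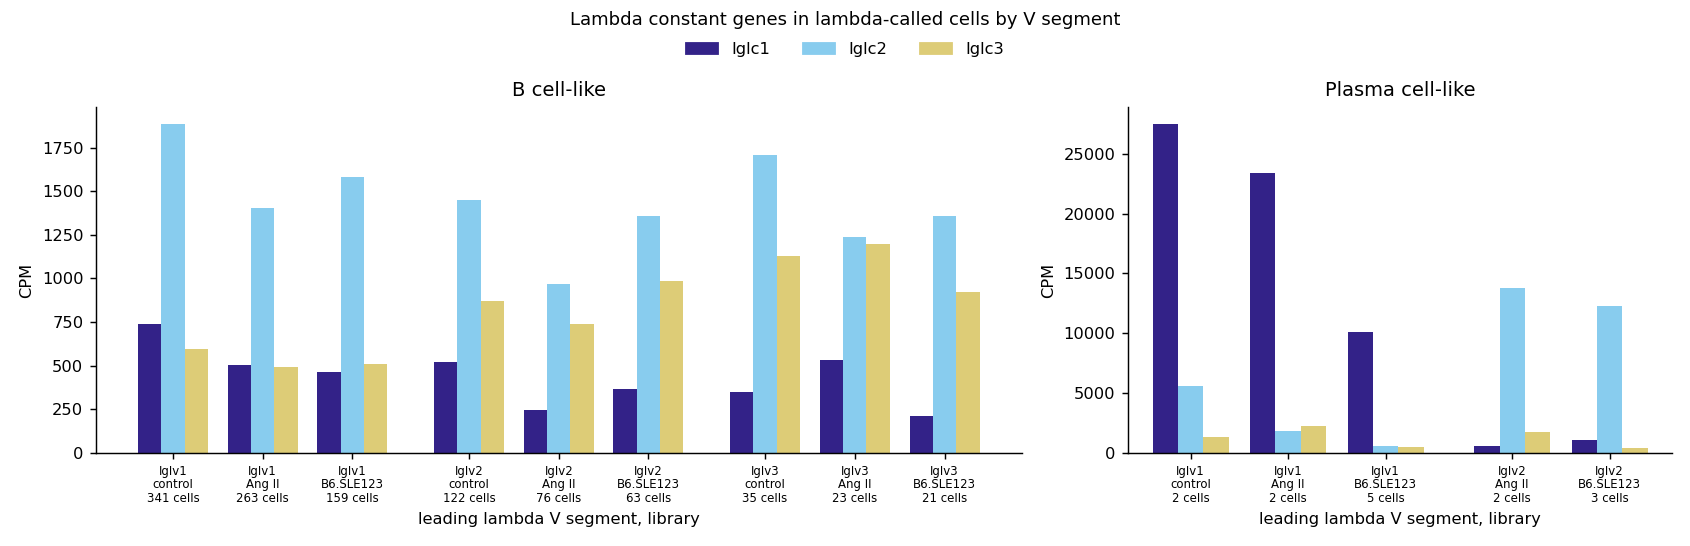
Level of Iglc1, Iglc2 and Iglc3 (CPM) in V lambda B cell-like (left) and plasma cell-like cells (right), as bars from 0 with 1 bar per gene, grouped by the lambda V segment that leads in the cell and by library, with the number of cells below and no error bars. In B cells of each library Iglc3 is lower in Iglv1-led cells (494 to 598 CPM) than in Iglv2- or Iglv3-led cells. In plasma cells Iglc1 is the tallest bar with Iglv1 and Iglc2 with Iglv2.

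The B cell clusters differed in their light chains. The transitional-like cluster, newly formed B cells named from 5 of 6 markers, held 674, 681 and 394 CPM of Iglc1 and 2304, 1857 and 1832 of Iglc2, with a lambda share by V segments of 7.65, 6.88 and 6.67%. That cluster also had 5 of 6 follicular markers, as did the follicular-like clusters described below, which had 3 of 6 transitional markers. The B1-like cluster, the innate-like B cells, named from 4 of 7 markers, held 16.5% lambda in control (10.1 to 24.8), 7.69% in Ang II and 5.88% in B6.SLE123. It also had 3 of 6 markers listed for atypical B cells, and 907 of its 1201 cells came from B6.SLE123. The first follicular-like cluster, resting recirculating B cells, held 41.0, 20.2 and 3.32% of the B cells of each library, with 5.14 and 3.83% lambda in control and Ang II and 2 of 258 called cells (0.78%, 0.094 to 2.77) in B6.SLE123. The second held 20.8, 41.4 and 0.79% of B cells, with 4.08 and 2.84% lambda and 3 of 78 called cells (3.85%, 0.80 to 10.8) in B6.SLE123. Marginal zone-like cells, which face the blood stream, named from 5 of 8 markers, held 6.72, 5.56 and 5%. The B6.SLE123 value was 3 of 60 called cells (1.04 to 13.9). Both germinal centre-like clusters, where B cells mutate their receptors, had 8 of 8 markers. The first also held 4 of 6 cycling markers and the second 6 of 6. Iglc2 was at 883, 698 and 417 CPM in the first and at 1019, 760 and 567 CPM in the second. It was at 1630, 1295 and 1235 CPM in the first follicular-like cluster. Igkc was at 1676, 1407 and 1169 CPM in the first germinal centre-like cluster. In the second it was at 1109, 895 and 2532 CPM, so that B6.SLE123 lay above control there. The lambda share was 3 of 60, 2 of 80 and 6 of 426 called cells in the first and 8 of 61, 1 of 34 and 6 of 340 in the second. The cluster that held most B6.SLE123 B cells had 2.18% lambda there (151 of 6939). Without that cluster the log2 ratio of the B6.SLE123 share to control was -0.73.

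In plasma cells the V call and the constant call came closer. By V segments, 2 of 22 called control plasma cells were lambda (9.09%, 1.12 to 29.2), as were 4 of 32 in Ang II (12.5%, 3.51 to 29.0) and 8 of 310 in B6.SLE123 (2.58%, 1.12 to 5.02). All 14 of these were lambda by the constant call too. Of the V kappa plasma cells, however, 16 of 20, 22 of 28 and 207 of 302 held both kinds of constant UMI within 10-fold of each other, and the lambda share by the constant call was 28.6% of 7 called cells, 40% of 10 and 8.16% of 98. Igkc stood at 0 (Poisson upper limit 128), 200 and 229 CPM in V lambda plasma cells against 32245, 23884 and 21534 in V kappa cells. Iglc1 stood at 27527, 18850 and 7421 CPM against 1933, 1284 and 1070. In the 5 B6.SLE123 plasma cells led by Iglv1, Iglc1 was at 10134 CPM and Iglc2 at 576, and in the 3 led by Iglv2, Iglc1 was at 1077 and Iglc2 at 12298. In Ang II the pairs were 23371 and 1873 CPM in 2 Iglv1-led cells, and 588 and 13786 in 2 Iglv2-led cells. In these few cells Iglv1 came with Iglc1 and Iglv2 with Iglc2.

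Between libraries, Igkc in plasma cells had a log2 ratio to control of -0.42 in Ang II and -0.38 in B6.SLE123, and the Iglc sum -0.55 and -1.22. Iglc1 stood at 5459 CPM in control, 3603 in Ang II and 1267 in B6.SLE123, with a log2 ratio of -0.60 and -2.11 (-2.20 to -2.01). It was the 1 of 4 members past 2-fold in B6.SLE123, where 17.2% of genes tested passed, and 0 of 4 passed in Ang II, where 14.5% did. Iglc2 was at 2951, 1892 and 2018 CPM, and Iglc3 is given above. The control level rests on 23 cells, 15 of them in hashtag C0302 and none in C0303, and 2 V lambda cells. Those 2 cells held 795 of the 1143 Iglc1 UMIs in control. In Ang II, 4 V lambda cells held 1130 of 1899, and in B6.SLE123, 8 held 552 of 3938. Among V kappa plasma cells alone, Iglc1 was at 1933, 1284 and 1070 CPM. Without control hashtag C0301 the Iglc sum in control was 8294 CPM in place of 9484, and without Ang II hashtag C0304 the Ang II value was 4764 in place of 6476, a log2 ratio of -0.99. In place of clusters, plasma cells were also chosen by summed UMIs of Mzb1, Xbp1, Sdc1, Prdm1, Tnfrsf17 and Derl3, which gave 107, 184 and 613 cells. This choice set no limit on B cell genes. Mzb1 was also found in 46.8, 54.2 and 56.6% of B cell-like cells, and how many B cells were taken in was not tested. In the cells so chosen Igkc was at 7333, 7238 and 12831 CPM, so that the B6.SLE123 log2 ratio turned to 0.81, and that of the Iglc sum was -0.36. In the same cells the lambda share by V segments was 16% of 100 called control cells, 7.32% of 164 in Ang II and 2.37% of 591 in B6.SLE123, so that Ang II lay below and not above control. The constant call gave 78.3% of 23, 79.3% of 29 and 32.8% of 131. In the B6.SLE123 library, which held 20 to 99 plasma cells per hashtag, Igkc ran from 18360 to 24492 CPM with a median of 19979.

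Within cells called by their V segments, constant UMIs of the called chain were fewer than its V UMIs in both classes. The call itself required at least 10 V UMIs. Over all B cells the Iglc sum lay above Iglv1, Iglv2 and Iglv3 together. It was at 3299 against 941 CPM in control, 2655 against 720 in Ang II and 2625 against 517 in B6.SLE123. B cells held 15.8, 13.5 and 11.2 Igkc UMIs per 100 Igkv UMIs within V kappa cells, and plasma cells 11.1, 6.99 and 6.17. Within V lambda cells there were 23.6, 20.3 and 19.6 UMIs in B cells and 8.55, 5.75 and 3.53 in plasma cells. Libraries of this kind read transcripts from the 5′ end, where the V segment lies.

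A list of 24 other genes of antibody assembly and secretion was followed beside the members. In B cells, 2 of 19 measured were past 2-fold higher in Ang II, the IgG constant genes Ighg1 and Ighg2c, and none was past 2-fold lower, beside 1.55% of all genes tested past it in either direction. In B6.SLE123, where 7.37% of all genes passed, 7 of 20 were higher and none lower: Igll1 and Vpreb1, which encode the surrogate light chain of precursor B cells, the IgG genes Ighg1, Ighg2b, Ighg2c and Ighg3, and Jchain, which joins secreted IgM and IgA. Ighg2c was at 104 CPM against 0.757 in control, Jchain at 238 against 19.3 and Vpreb1 at 5.59 against 0.938, and Igll1 had 141 UMIs against 0. Igll1 was found in only 0.167% of B6.SLE123 B cells and Vpreb1 in 0.386%, against 0.187% for Vpreb1 in control. Each IgG gene was found in 2.74 to 4.41% of B6.SLE123 B cells, against 0.0597 to 0.851% in control. Jchain was found in 13.032% against 0.903%. The B6.SLE123 library also held 323 plasma cell-like cells against 23 in control. No background was subtracted from these values, and the part of free RNA in them was not tested. Plasma cells of B6.SLE123 had 5 of 17 higher (Iglv2, Ighg1, Ighg2c, Igha, Ighe) and 3 lower (Iglv1, Ighm, Ighg2b), and those of Ang II had 2 of 13 higher and 2 lower, beside 17.2 and 14.5% of all genes tested. Some of these rest on single cells. Of 6741 Iglv2 UMIs in B6.SLE123 plasma cells, 6692 were in 3 V lambda cells. Of 12153 Iglv1 UMIs in control, 11638 were in 2 cells, and Ighe was found in 0.619% of 323 B6.SLE123 cells. The list's median log2 ratio was -0.13 and 0.56 in B cells and -0.16 and 0.12 in plasma cells for Ang II and B6.SLE123.

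Other genes that differed between V lambda and V kappa B cells were few: 0.176% of 9663 genes tested lay past 2-fold with the same sign in all 3 libraries, 11 higher and 6 lower. Among genes outside the immunoglobulin loci, those highest in V lambda cells were Agbl1, with log2 ratios of 2.00, 2.65 and 1.96, Dlg3 (1.58, 1.67 and 1.67), Actn1 (1.42, 1.92 and 1.89), Cplx2 (1.38, 1.60 and 2.27) and Myb (1.44, 1.38 and 1.92). Myb, a transcription factor of immature blood cells, is on the marker list of transitional B cells. These rest on few UMIs in V lambda cells: 6, 14 and 6 for Agbl1, 6, 6 and 3 for Dlg3, 14, 27 and 24 for Actn1, 11, 13 and 4 for Cplx2, and 18, 13 and 13 for Myb, and the interval of Dlg3 in B6.SLE123, -0.67 to 3.32, includes 0. Lowest with sizeable counts was Gm30211, a long noncoding RNA annotated across Igkc on the same strand (chromosome 6, 70719074 to 70740554), at log2 ratios of -1.86, -1.52 and -2.60, whose reads cannot be told apart from unspliced kappa transcripts. Ceacam16, Rhbdf1, Adap1 and Tmem176a completed the lower list with 1 to 4 UMIs in V lambda cells of each library. Between cells called by the constant genes, 3.15% of 4031 genes passed, led by Plac8, Pdcd4, Rps27rt, Gm15987 and Hcst on the lambda side and Cenpe, Jchain, Mef2b, Ckap2l and Cdca8 on the kappa side, where only 14, 13 and 33 cells stood.

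Over the 29 sums of a class in a library with at least 20 cells, Igkc and the Iglc sum had a Pearson correlation of 0.906 on the log2 scale. The genes most like Igkc were Ighm (0.979), Mzb1 (0.954), Igkv19-93 (0.931), Irf4 (0.894) and Ighv1-64 (0.880). Those most like the Iglc sum were Gm30211 (0.934), Mzb1 (0.925), Ighm (0.913), Irf4 (0.899) and Dennd5b (0.890). These sums share their libraries and background, and the correlations are descriptions.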

How the data were processed

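The deposited files hold raw UMI counts by gene and barcode that the authors did not normalize. Cell Ranger is named in the submitters' processing notes, with mm10 as the build, and the matrix headers give its version as 6.0.0. Aligner settings, and whether the matrices were filtered further, are not given in the sources used here. No cell annotation was used.

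Barcodes with more than 200 and fewer than 3500 genes and under 15% mitochondrial UMIs were kept. The deposited matrices held 18218 (control), 16062 (Ang II) and 20691 (B6.SLE123) barcodes, with 44146350, 59043555 and 63516694 gene UMIs, for a targeted 12000 cells each. Each hashtag was called by Otsu's threshold on log counts, and 2446, 1803 and 3664 barcodes positive for more than 1 were dropped. Cell pairs that carry the same hashtag remain, and no doublet caller was run. Of the several-hashtag barcodes with enough V segment UMIs, 14.9, 10.7 and 6.66% held both kinds, against 5.78, 5.39 and 3.05% of cells with 1 hashtag. Counts were scaled to 10000 per cell, the 427 immunoglobulin genes were left out, and Leiden clustering (resolution 0.8, seed 7) on 2000 variable genes with 30 components and 20 neighbours gave 29 clusters. A cluster was named where at least 3 markers of a class reached 25% of their highest cluster level, with the details of this rule settled on these data.

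Levels are summed counts scaled to CPM. A gene was tested for 2-fold with at least 50 UMIs over both libraries. Intervals (95%) are exact Poisson for levels, Clopper-Pearson for shares and conditional binomial for ratios. Correlations used log2(CPM + 10). The named genes were the 4 members, the 24 listed companions, the 5 genes most alike to Igkc and to the Iglc sum, and the 5 highest and 5 lowest non-immunoglobulin genes between lambda and kappa cells by the library ratio nearest 0. The members and lists were chosen with earlier results of these data known, and the V segment call was added after the data were seen. Alternatives covered the call thresholds, free RNA subtraction, thinning, scaling (edgeR 4.0.16 TMM and DESeq2 1.42.0 size factors, no test), cell filters, clustering, marker gating and leaving out hashtags. Sequences came from the GENCODE transcripts, with mm10 positions from the GENCODE annotation. Python 3.11.15, scipy 1.17.1, leidenalg 0.10.2 and R 4.3.3 were used, and the contrast step was tested on simulated data.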

Additional observations from a re-analysis of the deposited data

Results flagged for a closer look

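The Igkc level in B cells of hashtag C0304 of B6.SLE123, 1432.5 CPM, lay apart from the other 5 hashtag populations of that library, which ran from 1230 to 1292 CPM. The gap to the nearest population, divided by the range of the 6, was above Dixon's critical value at the 95% level. Of 15 sets of 6 populations looked at, it was the only one so marked, and chance alone marks about 1 set in 20. The cause was not tested.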

How the results depend on the processing

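No paired analysis was possible because each group is 1 library and its hashtags are not assigned to conditions. Values here are log2 ratios to control. Over all alternatives, leaving out hashtags aside, 109 values stayed within the main interval (counts of genes, within 1.5 times), 45 lay outside and 1 called value reversed. The causes were not tested. The lambda share of B cells by the constant genes, 0.0079 for Ang II and -0.03 for B6.SLE123, became -0.46 and -1.13 by V segments, and -0.47 for B6.SLE123 with at least 30 UMIs. By V segments the share gave -0.69 for Ang II with at least 30 UMIs, and for B6.SLE123 -1.47 with a ratio of 20 and -0.73 without the cluster of mostly B6.SLE123 cells. The plasma cell shares stayed within their wide main intervals, but with marker gating the V segment share turned from 0.46 to -1.13 for Ang II (interval -2.34 to 0.043) and went from -1.82 to -2.76 for B6.SLE123 (-3.90 to -1.63), and the constant-gene share was 0.0192 and -1.25.

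Igkc in B cells for Ang II was -0.39 with TMM, -0.40 with DESeq2 factors and -0.31 with several-hashtag barcodes kept. For B6.SLE123 it was -0.28, -0.26 and -0.45 in these, -0.36 with the limits read as UMIs, -0.26 with immunoglobulin genes in the clustering and -0.41 with marker gating. The Iglc sum in B cells was -0.37 and -0.38 (TMM, DESeq2) for Ang II, and -0.30, -0.29 and, with limits as UMIs, -0.24 for B6.SLE123.

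In plasma cells, Igkc for Ang II was -0.22 per non-immunoglobulin UMI, -0.20 with TMM, -0.18 with DESeq2 factors, -0.30 with several hashtags kept and -0.0189 gated. For B6.SLE123 the same settings gave -0.26, -0.16, -0.23, -0.33 and a reversed 0.81, and clustering with immunoglobulin genes gave -0.33. The Iglc sum gave -0.36, -0.33, -0.31, -0.37 and -0.13 for Ang II, and -1.10, -0.9988, -1.07, -1.08 and -0.36 for B6.SLE123. Limits read as UMIs left no plasma cell-like cluster and gave no value.

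Without the UMI minimum, 3535 genes in place of 176 passed 2-fold in Ang II B cells, 4601 in place of 838 in B6.SLE123 B cells, 5182 in place of 139 in Ang II plasma cells and 7140 in place of 670 in B6.SLE123 plasma cells. By V segments 17 genes in place of 127 differed between lambda and kappa B cells.

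Leaving out each hashtag population in turn gave, for Ang II and B6.SLE123, constant-gene shares of 0.0006 to 0.0140 and -0.0413 to -0.0143 in B cells and 0.00 to 1.26 and -2.13 to -1.03 in plasma cells. V segment shares were -0.61 to -0.30 and -1.28 to -0.97 in B cells and -0.30 to 1.32 and -2.28 to -0.95 in plasma cells. There, without control C0301, lambda was 5% of called control plasma cells in place of 9.09%, without Ang II C0303 it was 7.41% in place of 12.5%, and without B6.SLE123 C0303 3.74% in place of 2.58%. Igkc gave -0.36 to -0.30 and -0.34 to -0.27 in B cells and -0.54 to -0.18 and -0.50 to -0.15 in plasma cells. The Iglc sum gave -0.35 to -0.27 and -0.38 to -0.30 in B cells and -0.99 to -0.36 and -1.33 to -1.03 in plasma cells. With 23, 34 and 323 plasma cells and few kappa calls by the constant genes, these shares are the least certain.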
